A study of Mus musculus with 6 samples.

Results

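Alternative activation is a state of macrophages that the type 2 cytokines IL-4 and IL-13 bring about through the IL-4 receptor and the transcription factor STAT6. Its secreted and enzymatic products include chitinase-like lectins, which bind chitin-type sugars without cleaving them, the cysteine-rich protein RELM-alpha encoded by Retnla, and arginase 1, which turns arginine into ornithine and urea. Macrophages of this kind also carry surface receptors for mannose and galactose sugars, haemoglobin and folate. In the lung these genes are known from parasite infection, allergic inflammation and repair, and several of them are also read out at rest by alveolar macrophages, which reside in the airspaces, and interstitial macrophages, which reside in the tissue around vessels and airways.

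The 9 genes described here, of 29753 genes in the deposited table, are the chitinase-like genes Chil1 and Chil3, Retnla, Arg1, and the receptor genes Mrc1, Cd163, Mgl2, Clec10a and Folr2. They were taken by symbol from a list chosen with earlier results of these data known, and each had 1 line in the table. The study sequenced RNA of lungs of balb/c mice at day 0 (D0) and day 14 (D14) after cells of the mouse osteosarcoma line K7M2 were implanted at the orthotopic site, with 3 libraries per day. Both groups share the strain. A D14 group without implanted cells was not analysed here, so the tumour, the procedure and the passage of time cannot be told apart. The titles call the libraries of a day biological replicates, and the labels give no genotype, age or sex and do not say whether a replicate is 1 mouse or a pool.

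The 6 libraries held 14878101 to 17385006 counts. The label for the tissue reads lungs although the protocol for extraction speaks of macrophages grown from bone marrow. In the counts, 7 epithelial genes of the lung, among them Sftpc and Scgb1a1, summed to between 31862 and 58988 CPM (counts scaled to the size of the library) in each of the 6. D0 replicate 3 stood apart from the other 5 on the leading principal component (42.6% of the variance) and held the highest level of 28.7% of the 17686 tested genes. In this library haemoglobin genes reached 52461 CPM, against 9237 to 28889 CPM elsewhere. The sums of squamous epithelial and of skeletal muscle genes were also highest in it and next highest in D0 replicate 2, with squamous sums of 2497 and 606 CPM against 28.0 to 188 CPM in the other 4, and the part of such tissue in the D0 values of the 9 genes was not tested. Fold changes of the 9 genes that rest on D0 replicate 3 are given with and without it. RNA of whole tissue was measured, so fewer cells of a type and less RNA per cell cannot be told apart.

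None of the 9 genes passed the test between days, while D0 replicate 3 separated several of them from the other 5 libraries. By edgeR's quasi-likelihood test, 0 of the 9 had an adjusted p under 0.05, a threshold that 0.0339% of all tested genes passed (0.017% higher and 0.017% lower at D14). DESeq2 and limma-voom also called 0. At an unadjusted p under 0.05 stood 1 of the 9, Arg1, where 12.6% of all tested genes stood and 7.09% were lower at D14 like Arg1. The CPM ranges of D0 and D14 did not overlap for 1 gene, Mgl2, higher at D14, where 10.9% of all tested genes had a D14 range above the D0 range and 21.6% did not overlap in either direction. In all, 3 genes had a positive and 6 a negative log2 fold change of D14 against D0, with a median of −0.54, while the median over all tested genes was −0.033. Without D0 replicate 3, 7 were positive and 2 negative, with a median of 0.20 against −0.019 over all tested genes, and 0 were called where 0.121% of all genes were. D0 replicate 3 was the highest of the 6 libraries for 7 of the 9 genes, all but Cd163 and Mgl2, and for 28.7% of all tested genes. D0 replicate 1 was the lowest D0 library for all 9 and the lowest of all 6 for 6 of them. The share of all tested genes that were lowest there was not counted. Sums of general macrophage, surfactant and airway, and haemoglobin genes were also lowest there, while the fat sum was lowest in D14 replicate 1 and the stromal sum in D0 replicate 3.

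**Figure D1:**
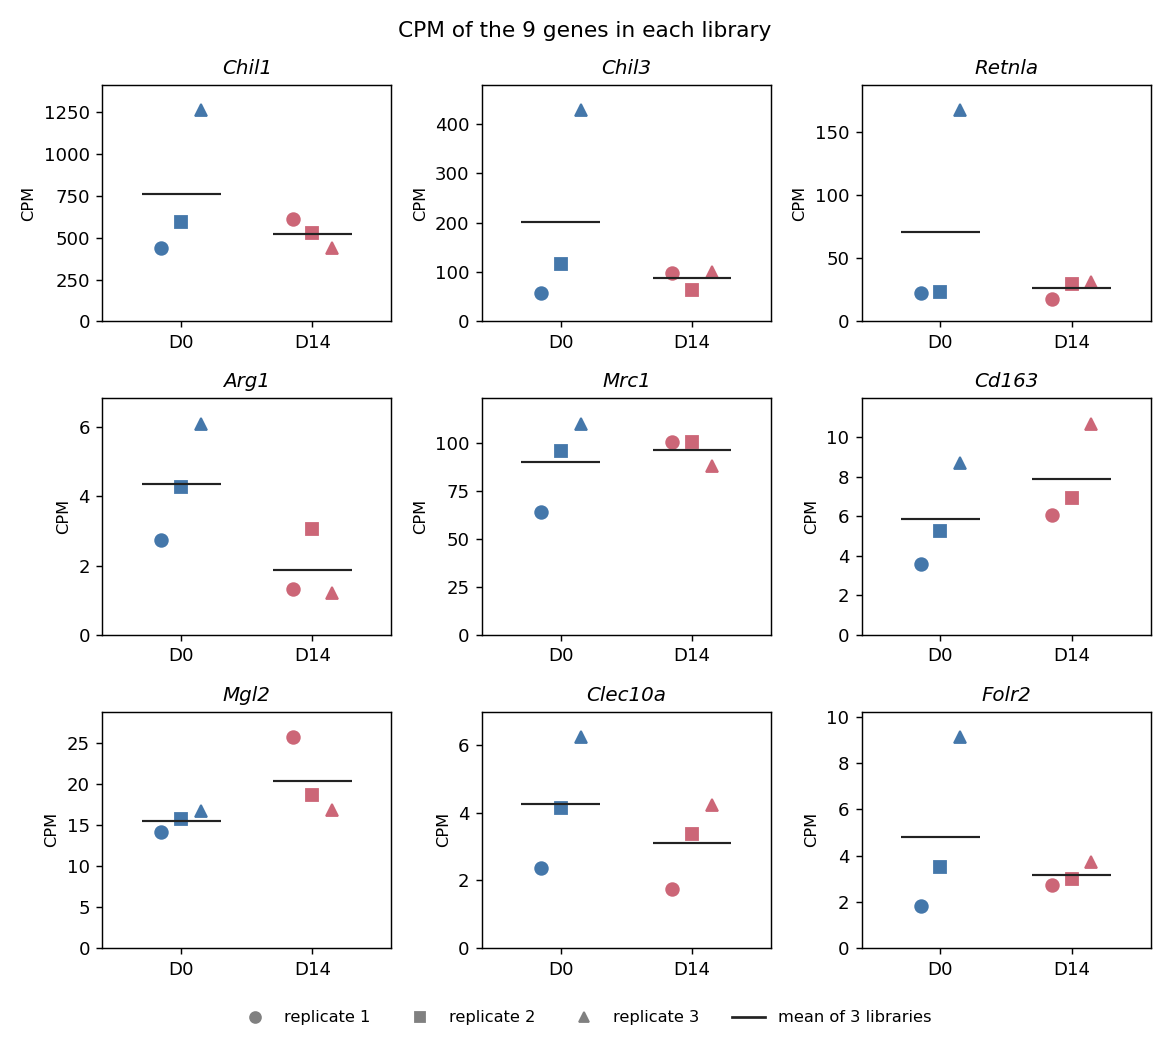
CPM of each of the 9 genes in the 6 libraries, with an axis from 0 in every panel, symbols for the replicate numbers and a line at the mean of each day. D0 replicate 3 lies above all other libraries for Chil1, Chil3, Retnla and Folr2, by at least 2 times, while for Mgl2 the 3 D14 libraries lie between 16.8 and 25.7 CPM and the D0 libraries between 14.1 and 16.6 CPM.

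By GENCODE, in GRCm38 coordinates, all 9 are protein-coding, and they are found on chromosome 1 from 134182176 to 134190181 (Chil1), chromosome 3 from 106147554 to 106167564 (Chil3), chromosome 16 from 48842551 to 48844461 (Retnla), chromosome 10 from 24915221 to 24927484 (Arg1) and chromosome 2 from 14229392 to 14332057 (Mrc1). Cd163 lies on chromosome 6 from 124304656 to 124330527, Mgl2 on chromosome 11 from 70130329 to 70137550, Clec10a on chromosome 11 from 70156197 to 70170834 and Folr2 on chromosome 7 from 101839988 to 101857194.

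Seen per length, the secreted chitinase-like proteins and RELM-alpha were the most abundant transcripts of the set. Dividing CPM by the kilobases of the longest annotated transcript, the D0 means were 416 ± 238 CPM per kilobase for Chil1, 130.1 ± 129 for Chil3 and 119 ± 139 for Retnla (SD, n = 3). The receptors followed with 16.7 ± 4.40 for Mrc1, 9.48 ± 0.778 for Mgl2 and 3.999 ± 3.18 for Folr2, and the lowest means were 2.96 ± 1.14 for Arg1, 1.83 ± 0.83 for Clec10a and 1.32 ± 0.587 for Cd163. D0 replicate 3 carried the highest of these means: over the other 2 D0 libraries they were 280.3 for Chil1, 56.4 for Chil3, 38.4 for Retnla and 2.21 for Folr2, which then stood below Arg1 at 2.37. Over all 3 libraries Chil3 and Retnla differed by less than their spread, as did Folr2 and Arg1, and Clec10a and Cd163. At D14 the first 6 kept this order, with 286 ± 46.8 CPM per kilobase for Chil1, 56.9 ± 12.99 for Chil3, 44.0 ± 12.2 for Retnla, 17.9 ± 1.35 for Mrc1, 12.5 ± 2.88 for Mgl2 and 2.61 ± 0.427 for Folr2. The last 3 at D14 were Cd163 at 1.78 ± 0.553, Clec10a at 1.34 ± 0.543 and Arg1 at 1.27 ± 0.699, again within their spread of each other.

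Chil1 encodes BRP-39, a secreted chitinase-like glycoprotein that lung epithelium and macrophages make. In D0 replicates 1, 2 and 3 it reached 437, 594 and 1263 CPM, and in the D14 replicates 609.9, 528 and 438 CPM. D0 replicate 3 was 2.07 times the highest other library, and the 3 D14 values lay close to those of D0 replicates 1 and 2. The log2 fold change of D14 against D0 was −0.54 (SE 0.38; adjusted p = 0.536, edgeR), with a 95% confidence interval from −1.43 to 0.34. Without D0 replicate 3 it was 0.029 (SE 0.20; adjusted p = 0.966, edgeR), from −0.44 to 0.50. Surfactant and airway genes, a list of 13, summed to 66628 CPM in D0 replicate 3, against 37492 to 53098 CPM elsewhere. None of the 13 reached 2 times every other library there, and their part in the Chil1 level was not tested.

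Chil3 encodes Ym1, a secreted chitinase-like lectin of alveolar macrophages and of monocyte and neutrophil precursors. It stood at 58.4, 115 and 427 CPM across D0 and at 98.6, 64.5 and 99.7 CPM across D14. D0 replicate 3 was 3.71 times the highest other library, D0 replicate 1 was the lowest of the 6, and all D14 values lay between D0 replicates 1 and 2. D14 less D0 came to −1.19 in log2 (SE 0.66; adjusted p = 0.462, edgeR), with an interval from −2.73 to 0.34, and 0.015 (SE 0.34; adjusted p = 0.990, edgeR) without D0 replicate 3, with an interval from −0.82 to 0.85.

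Retnla encodes RELM-alpha, a secreted protein of alternatively activated macrophages, airway epithelium and adipose tissue. It stood at 22.3, 23.7 and 167 CPM across D0 and at 18.0, 29.5 and 31.5 CPM across D14. This was the widest gap of the 9 genes, with D0 replicate 3 at 5.31 times the highest other library and the remaining 5 within a narrow band. On the log2 scale D14 differed from D0 by −1.43 (SE 0.79; adjusted p = 0.463, edgeR), with an interval from −3.29 to 0.43, and 0.20 (SE 0.25; adjusted p = 0.772, edgeR) without D0 replicate 3, with an interval from −0.39 to 0.78. Fat markers, a list of 12, summed to 1023 CPM in D0 replicate 3, to 2050.5 CPM in D14 replicate 3, and to 116 to 518 CPM in the other 4 libraries. Retn, the resistin gene of adipocytes and a relative of Retnla, had 36.4 CPM in D0 replicate 3 and 42.7 CPM in D14 replicate 3, against 2.55 to 12.1 CPM in the other 4 libraries. The part of fat in the Retnla level was not tested.

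Sequences before the start sites of Chil3, its neighbouring near copy Chil4 and Retnla are shown because Chil3 and Retnla had the widest gaps between D0 replicate 3 and the other libraries, and because the copy bears on what a Chil3 count is. RefSeq windows of GRCm38 were matched for 7 of the 9 genes, and the bases before the earlier of the RefSeq and GENCODE starts are printed, 5′ to 3′ on the gene's strand. Capitals mark matches to a STAT-type motif, TTC and GAA separated by 3 or by 4 bases, both strands searched. STAT6 is known to favour the wider spacing.
Chil3: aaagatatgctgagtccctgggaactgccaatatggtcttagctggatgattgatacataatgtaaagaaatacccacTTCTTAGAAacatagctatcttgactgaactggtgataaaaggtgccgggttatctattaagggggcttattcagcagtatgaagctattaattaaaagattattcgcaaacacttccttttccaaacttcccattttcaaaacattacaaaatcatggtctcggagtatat
Chil4: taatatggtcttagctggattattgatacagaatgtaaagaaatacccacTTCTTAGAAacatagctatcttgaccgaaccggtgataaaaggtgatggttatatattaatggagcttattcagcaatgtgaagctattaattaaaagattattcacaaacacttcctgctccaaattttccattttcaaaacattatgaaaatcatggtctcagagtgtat
Retnla: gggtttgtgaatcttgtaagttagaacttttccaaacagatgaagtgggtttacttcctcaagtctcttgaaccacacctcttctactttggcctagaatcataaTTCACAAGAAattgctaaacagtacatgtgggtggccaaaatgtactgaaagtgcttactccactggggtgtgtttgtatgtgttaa
These lie at chr3:106167565-106167814 (minus strand), chr3:106219508-106219729 (minus strand) and chr16:48842359-48842550 (plus strand). Over the 300-base windows, which run to 50 bases after the start, the motif with 4 bases between was found in 1 of the 7 genes, Retnla, at position −145 from the RefSeq start, and in 6.95% of all 32851 windows. The motif with 3 bases between was found in 1 of the 7, Chil3, at −172, in Chil4 at −200, and in 8.3% of all windows. TATAAA, held by 13.6% of all windows, was found at −30 in Retnla, at −31 in Chil4 and at −3 in Chil3, lying across the end of the printed bases in Chil4 and Chil3 and beyond it in Retnla. These matches describe letters in the windows and say nothing of binding.

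Chil3 and Chil4 share 92.6% of 271 aligned bases of their windows and 94.4% of 1538 aligned bases of their transcripts. Of the 50-base stretches of the Chil3 transcript, 18.5% also occur in Chil4, and of the 100-base stretches 3.75% do. The division of reads between the 2 genes therefore depends on the counting and on the read length, which is not given. Chil4 counts were at most 1.83% of the Chil3 counts of a library, and whether they came from Chil3 reads was not tested. Chil4, which encodes the chitinase-like protein Ym2, had 3, 33 and 18 counts at D0 and 0 counts in each D14 library, and it stayed below the filter on low counts. Against a limit of 3 counts in each D14 library its D0 mean of 1.18 CPM was at least 6.36-fold higher, and without D0 replicate 2 at least 3.87-fold. D0 replicate 1 itself stood at that limit. In a fit without the filter the difference had an adjusted p of 0.379 (edgeR). As a share of Chil3 counts, Chil4 came to 0.299%, 1.83% and 0.296% at D0, while 3 counts would be 0.176%, 0.296% and 0.193% of the Chil3 counts of the D14 libraries, so a share like that of D0 replicate 2 lay above all 3 limits. The shares of D0 replicates 1 and 3 lay about at the limit of D14 replicate 2. The library with the most Chil4 was not the one with the most Chil3.

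Most general macrophage markers were highest in D0 replicate 3, 11 of 14, where 28.7% of all tested genes were highest, and 1 was lowest of the 6 libraries. Csf1r, the receptor for the macrophage growth factor CSF1, had 148 CPM there and 133 to 177 CPM in the other 5 libraries, and Adgre1, the macrophage surface protein F4/80, had 26.2 CPM against 16.9 to 25.7 CPM. Per count of Csf1r in the same library, a ratio that no scaling changes, Retnla had 1.13 counts in D0 replicate 3 and 0.112 to 0.237 elsewhere. For Chil3 the same ratio was 2.89 against 0.365 to 0.75, and for Chil1 8.54 against 2.99 to 3.82. Csf1r was not among the 11, while Adgre1 was. Per count of Adgre1, Retnla had 6.39 counts in D0 replicate 3 and 0.881 to 1.33 elsewhere, and Chil3 had 16.3 against 2.51 to 4.82. Ratios to markers that rose further in D0 replicate 3 were not taken. Tyrobp, Ctss and Cd68 of the same list reached 1.81, 1.74 and 1.70 times the highest other library there, against 2.07 times for Chil1. All 14 general macrophage markers summed to 10764 CPM in D0 replicate 3, against 4693 to 6307 CPM elsewhere, most of it from Lyz2, the lysozyme gene of macrophages and alveolar type 2 cells. Without Lyz2 the sums were 1487 CPM and 809 to 1025 CPM. Of the 14, only Lgals3, the gene of galectin-3, reached at least 2 times every other library there, with 261 CPM against 71.0 to 127 CPM.

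Among the 18 tested markers of alveolar macrophages, 3 reached at least 2 times every other library in D0 replicate 3, which 1.54% of all tested genes and 4 of the 9 genes did. These were Marco, a scavenger receptor for particles, with 35.7 CPM against 0.833 to 2.36 CPM, Ccl6, a chemokine, with 633 CPM against 124 to 203 CPM, and Ctsk, a cathepsin, all singled out after their values were seen. Siglecf, the defining lectin of these cells, had 17.6 CPM against 12.0 to 20.3 CPM. The summed list stood at 2686 CPM in D0 replicate 3 and at 860 to 1790.4 CPM elsewhere. Krt19, Fabp4, Lpl and Car4 gave 433, 384, 292 and 217 CPM of it, and whether these came from alveolar macrophages was not tested. Of them only Krt19 was highest in D0 replicate 3. Neutrophil and precursor markers summed to 617 CPM there and to 240.2 to 417 CPM elsewhere, with Lcn2, which epithelium also makes, at 446 CPM against 60.4 to 74.5 CPM. Without Lcn2 the sum in D0 replicate 3 was 172 CPM, the lowest of the 6 libraries, against 173 to 343 CPM. The part of these cells in the values of Chil3 and Retnla was not tested. Between days 0 genes of any marker list passed by edgeR. The median log2 fold change was −0.26 for general macrophage, −0.66 for alveolar macrophage, −0.24 for interstitial macrophage, −0.072 for monocyte and 0.32 for neutrophil markers. It was −0.47 for mast cell and eosinophil, 0.80 for fat, −0.095 for surfactant and airway, 0.37 for lymphatic, −0.036 for haemoglobin, −0.016 for stromal and −0.29 for the 7 lung epithelial markers. Several of these directions rested on D0 replicate 3. Without it the medians were −0.032 for general macrophage, −0.088 for alveolar macrophage, 0.30 for interstitial macrophage, 0.096 for monocyte, 0.21 for neutrophil and 0.16 for mast cell and eosinophil markers. They were 1.25 for fat, 0.102 for surfactant and airway, 0.27 for lymphatic, 0.98 for haemoglobin, 0.036 for stromal and −0.20 for lung epithelial markers.

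Of other relatives, Chia1, an active acidic chitinase of the airway, differed on the log2 scale by −0.12 (SE 0.24; adjusted p = 0.846, edgeR), and Chid1, a chitinase domain protein, −0.16 (SE 0.16; adjusted p = 0.664, edgeR). Chit1, the chitinase of macrophages, stayed below the filter with 0, 7 and 33 counts across D0, most of them in D0 replicate 3, and 2, 0 and 0 across D14. Of 9 relatives 4 were tested, 0 passed, and their median was −0.062 with all libraries and 0.33 without D0 replicate 3, where Chia1 stood at 0.21 (SE 0.13; adjusted p = 0.561, edgeR).

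Arg1 was the member with the lowest p, though it did not pass. It stood at 2.73, 4.28 and 6.11 CPM across D0 and at 1.33, 3.06 and 1.22 CPM across D14, from 47, 67 and 87 and from 23, 48 and 19 counts. D14 replicates 1 and 3 lay below every D0 library, and D14 replicate 2 lay above D0 replicate 1, with exact 95% counting intervals of 2.26 to 4.06 and 2.01 to 3.63 CPM for this pair. The log2 fold change was −1.22 (SE 0.47; adjusted p = 0.373, edgeR), with an interval from −2.31 to −0.14. It was −0.90 (SE 0.48; adjusted p = 0.498, edgeR) without D0 replicate 3. Its sign was negative under all 15 alternatives, with a range from −1.77 to −0.90.

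The genes whose log2 CPM followed Arg1 most closely over the 6 libraries were not macrophage genes. Among genes with a mean of at least 5 CPM they were Sprr3, a cornified envelope protein of squamous epithelium (Pearson r = 0.997), Tnnt3, a troponin of fast skeletal muscle (0.997), and Krtdap, a keratinocyte protein (0.996). These are descriptions over 6 libraries labelled as lung, and without D0 replicate 3 the values were 0.995, 0.995 and 0.994. Sprr3 stood at 1.86, 20.4 and 86.2 CPM across D0 and at 0, 4.59 and 0 CPM across D14. After these values were seen, lists for both tissues were added. Squamous epithelial genes, 17 in the table, summed to 69.7, 606 and 2497 CPM across D0 and to 28.0, 188 and 30.6 CPM across D14, and 16 of the 17 were highest in D0 replicate 3. The number at 0 counts was 2, 0 and 0 at D0 and 5, 2 and 5 at D14. The 12 skeletal muscle genes summed to 143, 288 and 1178 CPM across D0 and to 50.3, 224 and 52.9 CPM across D14, with 3, 0 and 4 of them at 0 counts at D14 and 0 in each D0 library. Between days 0 genes of either list passed by edgeR, with medians of −2.83 for squamous and −2.80 for muscle genes. Both sums place the libraries in the order of Arg1 except for D14 replicates 1 and 3, the lowest pair. The lists were prompted by the genes most like Arg1 and hold Sprr3, Krtdap and Tnnt3. This order was therefore partly set by the choice of lists and is no further evidence. Arg1 is also known from squamous epithelium. The part of such tissue in the Arg1 values was not tested.

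**Figure D2:**
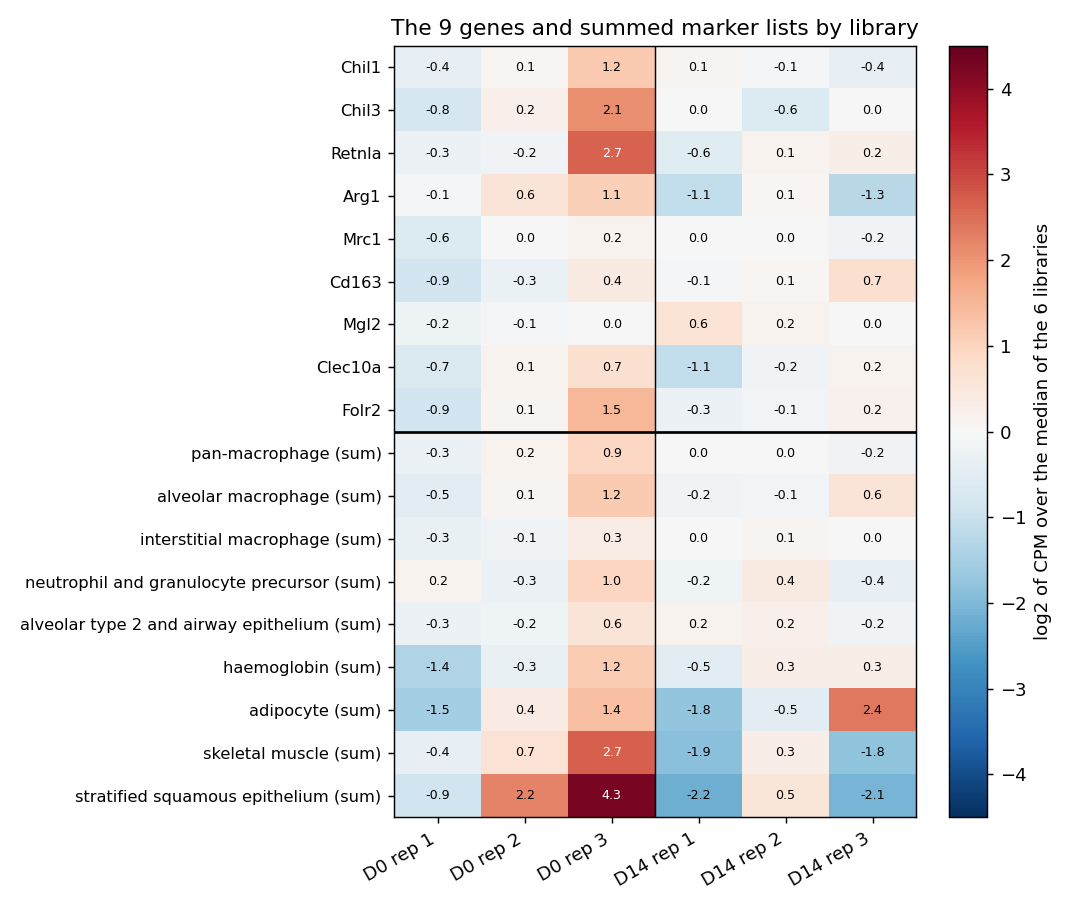
Levels of the 9 genes and of summed marker lists in each library, as the log2 of the CPM over the median of the 6 libraries, with libraries in columns and D0 to the left of the vertical line. D0 replicate 3 is high for Retnla, Chil3 and Folr2 and for the squamous epithelium and muscle sums. Arg1 follows these sums, the last 2 rows, but their lists were added after the genes most like Arg1 were seen.

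Enzymes around arginase did not pass either. Of 13 tested genes of arginine and polyamine metabolism 0 were called, with a median log2 fold change of 0.10, 9 positive and 4 negative. Nos2, the inducible nitric oxide synthase that competes for arginine in classically activated macrophages, stood at 13.1, 6.52 and 7.51 CPM across D0 and at 16.9, 16.3 and 10.2 CPM across D14, a log2 difference of 0.67 (SE 0.32; adjusted p = 0.424, edgeR). Per count of Arg1, Nos2 had 4.81, 1.52 and 1.23 counts at D0 and 12.7, 5.31 and 8.37 counts at D14. The ranges of this ratio did not overlap, although those of Nos2 and of Arg1 alone did. No share over other ratios was taken, and 21.6% of single tested genes did not overlap in either direction. Arg1 had only 19 to 87 counts per library, and the part of squamous tissue in this ratio was not tested. With 3 libraries a day an exact permutation test could reach no p below 0.1. Arg2, the mitochondrial arginase, differed on the log2 scale by 0.14 (SE 0.37; adjusted p = 0.884, edgeR), and by 0.71 (SE 0.22; adjusted p = 0.366, edgeR) without D0 replicate 3. The list's median was then 0.21. The most abundant genes of the list, Azin1, an inhibitor of antizyme, and Sat1, a polyamine acetyltransferase, stood at 0.30 (SE 0.28; adjusted p = 0.633, edgeR) and −0.35 (SE 0.21; adjusted p = 0.492, edgeR).

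Of the surface receptors, Mrc1, the mannose receptor CD206 of macrophages and some endothelium, stood at 63.8, 95.8 and 110.0 CPM across D0 and at 100.3, 100.2 and 87.7 CPM across D14. The D14 libraries lay within the D0 range. D14 less D0 came to 0.096 in log2 (SE 0.21; adjusted p = 0.853, edgeR), with an interval from −0.40 to 0.59. Leaving out D0 replicate 3 gave 0.27, and leaving out D0 replicate 1, the lowest library, gave −0.093. GENCODE places a microRNA gene, Mir511, on the same strand within Mrc1.

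Cd163, the scavenger receptor for haemoglobin bound to haptoglobin, stood at 3.60, 5.24 and 8.71 CPM across D0 and at 6.08, 6.95 and 10.7 CPM across D14. Each D14 library lay above D0 replicates 1 and 2, and D0 replicate 3 lay above D14 replicates 1 and 2. On the log2 scale D14 differed from D0 by 0.44 (SE 0.37; adjusted p = 0.606, edgeR), with an interval from −0.43 to 1.304. Without D0 replicate 3 it was 0.84 (SE 0.33; adjusted p = 0.416, edgeR), with an interval from 0.059 to 1.62, and it was the only one of the 9 at an unadjusted p under 0.05 in that fit, where 11.6% of all genes stood and 5.6% were higher at D14. Haemoglobin genes, whose protein this receptor clears, summed to 9237, 18919 and 52461 CPM across D0 and 16434, 28889 and 28230.0 CPM across D14. Both were lowest in D0 replicate 1, which was the lowest library for 6 of the 9 genes. Haemoglobin was highest in D0 replicate 3 and Cd163 in D14 replicate 3. The part of blood in the Cd163 level was not tested.

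Mgl2 and Clec10a encode the galactose-type lectins CD301b and CD301a of macrophages and dendritic cells and lie near each other on chromosome 11. Mgl2 stood at 14.1, 15.7 and 16.6 CPM across D0 and at 25.7, 18.7 and 16.8 CPM across D14. All D14 values lay above all D0 values, though D14 replicate 3 and D0 replicate 3 lay close together. The log2 fold change was 0.40 (SE 0.20; adjusted p = 0.437, edgeR), with an interval from −0.073 to 0.87. It was 0.20 without D14 replicate 1, the highest library.

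Clec10a stood at 2.38, 4.15 and 6.25 CPM across D0 and at 1.74, 3.38 and 4.23 CPM across D14, and the ranges overlapped. D14 less D0 came to −0.45 in log2 (SE 0.45; adjusted p = 0.667, edgeR), with an interval from −1.50 to 0.60, and −0.068 without D0 replicate 3. The transcripts of the pair share 86.4% of 1040 aligned bases, and 15.3% of the 50-base stretches of Mgl2 also occur in Clec10a, so reads could be split between them. There were 5.93, 3.78 and 2.66 counts of Mgl2 per count of Clec10a at D0 and 14.8, 5.53 and 3.97 at D14, with the ranges overlapping. D14 replicate 1 was the highest of the 6 for Mgl2 and the lowest for Clec10a. Of 12 tested dendritic cell markers 0 passed, with a median log2 fold change of 0.22. Cd209a, a lectin of the dendritic cells that carry CD301b, stood at 4.42, 4.28 and 5.48 CPM across D0 and at 6.55, 8.29 and 7.88 CPM across D14, a log2 difference of 0.68 (SE 0.22; adjusted p = 0.364, edgeR), and was picked after its values were seen.

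Folr2, the folate receptor beta of tissue-resident macrophages, stood at 1.802, 3.51 and 9.13 CPM across D0 and at 2.72, 3.00 and 3.72 CPM across D14. D0 replicate 3 was 2.46 times the highest other library and the D14 libraries lay between D0 replicate 1 and that value. On the log2 scale D14 differed from D0 by −0.61 (SE 0.55; adjusted p = 0.632, edgeR), with an interval from −1.89 to 0.68, and 0.25 (SE 0.38; adjusted p = 0.817, edgeR) without D0 replicate 3. GENCODE places the antisense gene Gm10602 across it, with 13 to 64 counts per library against 31 to 130 for Folr2, and without a stated strand setting reads of the pair cannot be told apart. Of 17 tested markers of interstitial macrophages, which carry Folr2, 13 were highest in D0 replicate 3, as were 28.7% of all tested genes. The complement genes C1qa and C1qb stood there at over 2 times every other library, where 1.54% of all tested genes stood at 2 times or more. Another 3 were lowest there: Lyve1 at 45.5 CPM against 106 to 326 CPM, Stab1 at 53.8 against 88.5 to 150.1 CPM, and Cx3cr1 at 7.79 against 8.43 to 13.3 CPM. All 5 were picked after their values were seen.

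**Figure D3:**
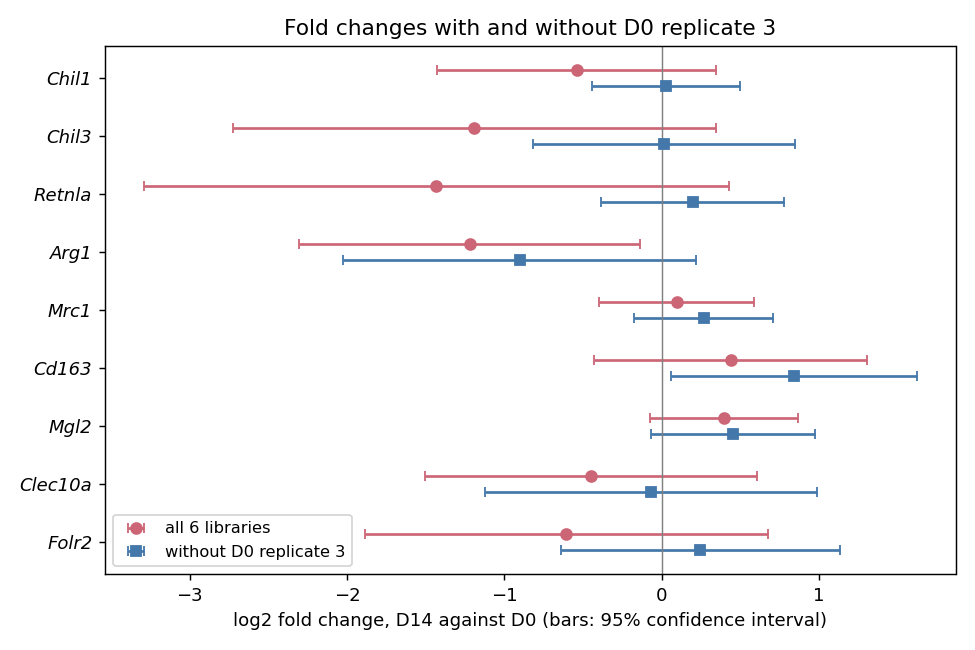
Log2 fold change of D14 against D0 for each of the 9 genes, with 95% confidence intervals, from the fit on all 6 libraries (circles) and without D0 replicate 3 (squares). Without that library Chil1, Chil3, Retnla and Folr2 move from negative values to 0.029, 0.015, 0.20 and 0.25, while Arg1 stays negative at −0.90.

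The receptors and signalling genes upstream of alternative activation were described from a list of 28, of which 27 were in the table and 23 tested. By edgeR 0 of the 23 passed, and 5 stood at an unadjusted p under 0.05, where 12.6% of all tested genes stood, 4 of them higher (5.48% of all genes) and 1 lower (7.09%). The median log2 fold change was 0.22, with 16 positive and 7 negative, and 7 genes had a D14 range above the D0 range (10.9% of all genes) while 1 had it below (10.7%). Without D0 replicate 3 the median was 0.26, with 17 positive and 6 negative. DESeq2, which called 1.55% of all tested genes and 0.95% as higher, called 2 of the 23, Il1rl1 and Klf4, both higher, and these are named for that reason after their values were seen. Il1rl1, the receptor for the alarm cytokine IL-33, stood at 6.63, 5.75 and 5.76 CPM across D0 and at 22.1, 45.5 and 8.40 CPM across D14, a log2 difference of 2.06 (SE 0.54; adjusted p = 0.347, edgeR). Klf4, a transcription factor that acts with STAT6, stood at 110.1, 176 and 121 CPM across D0 and at 325, 234 and 253 CPM across D14, a log2 difference of 0.99 (SE 0.23; adjusted p = 0.326, edgeR).

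The cytokines themselves were scarce. Il4 had 0.463 to 1.05 CPM in every library and Il13 at most 0.128 CPM, both below the filter. Il33 differed on the log2 scale by 0.19 (SE 0.23; adjusted p = 0.718, edgeR). The receptor chain Il4ra stood at 211, 140.2 and 114 CPM across D0 and at 178, 192 and 170.3 CPM across D14, a log2 difference of 0.22 (SE 0.23; adjusted p = 0.686, edgeR), and Stat6 stood at 0.12 (SE 0.15; adjusted p = 0.716, edgeR). The most abundant genes of the list, Cebpb, a transcription factor of myeloid cells, and Jak1, a kinase of the receptor, stood at 0.049 (SE 0.39; adjusted p = 0.961, edgeR) and 0.41 (SE 0.17; adjusted p = 0.390, edgeR). Without D0 replicate 3 Cebpb stood at 0.57 (SE 0.29; adjusted p = 0.487, edgeR), and Il4ra and Stat6 at 0.039 and 0.033. None of the 23 reached 2 times every other library in D0 replicate 3, where the list summed to 1597 CPM, against 1594 to 2019 CPM elsewhere.

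**Figure D4:**
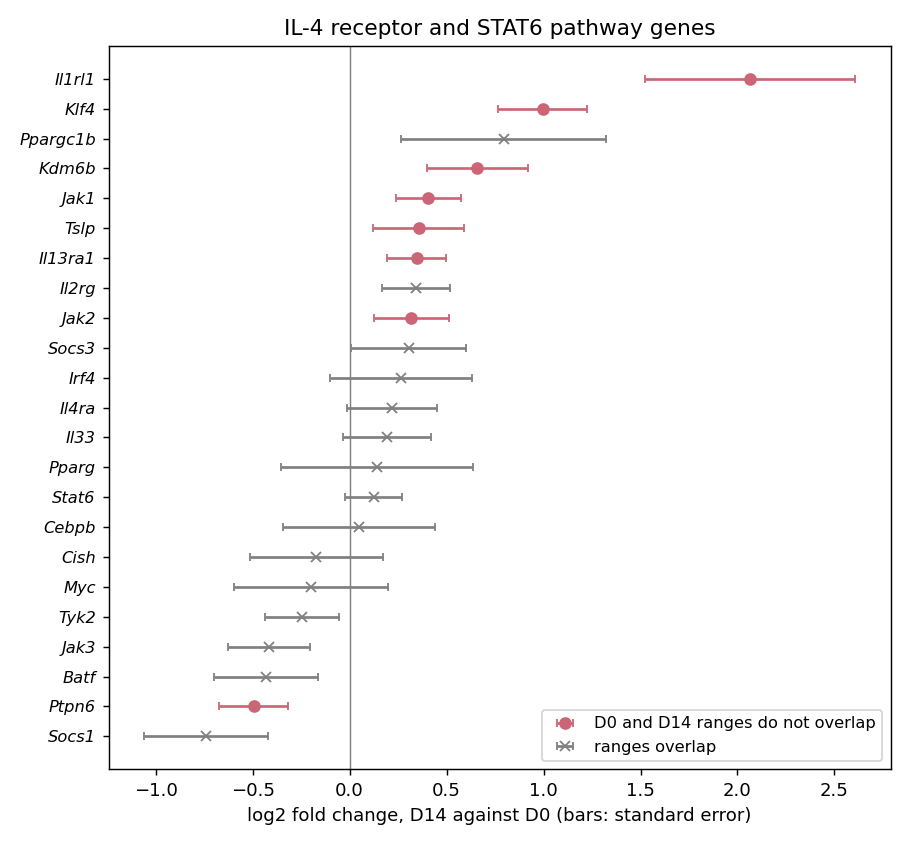
Log2 fold change of D14 against D0 with standard errors for the 23 tested genes of the IL-4 receptor and STAT6 pathway, sorted by value. Filled circles are the 8 genes whose D0 and D14 ranges do not overlap, 7 of them above 0, with Il1rl1 at 2.06 and Klf4 at 0.99 the highest among them, and 0 genes passed an adjusted p of 0.05 by edgeR.

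Other genes known to rise with alternative activation were split in direction. Of 23 tested, 0 passed by edgeR or DESeq2, 11 were positive and 12 negative, and the median was −0.015 (0.11 without D0 replicate 3). At an unadjusted p under 0.05 by edgeR stood 7, where 12.6% of all tested genes stood. Of these, 3 were higher (5.48% of all genes) and 4 lower (7.09%). The 2 most abundant were Cd36, a scavenger receptor for lipids that capillary endothelium also carries, at 0.68 (SE 0.23; adjusted p = 0.364, edgeR) and Vegfa at −0.28 (SE 0.18; adjusted p = 0.508, edgeR). In D0 replicate 3, 5 of the 23 reached at least 2 times every other library, which 1.54% of all tested genes did, and these 5 are named for that reason. Hmox1, the haem-degrading enzyme, had 233 CPM there against 31.4 to 42.5 CPM, Il1rn, the IL-1 receptor antagonist, 23.5 against 2.44 to 7.73 CPM, and Trem2, a lipid-sensing receptor of macrophages, 23.7 against 4.29 to 9.84 CPM. The chemokines Ccl17 and Ccl24 had 11.03 and 6.60 CPM there, against at most 5.04 and 2.95 CPM. Of 22 scavenger and lectin receptors of macrophages 0 passed by edgeR with all libraries, with a median of 0.23. At an unadjusted p under 0.05 stood 6, with 4 higher and 2 lower (5.48% and 7.09% of all genes). DESeq2, which called 1.55% of all tested genes, called 1, Lyve1. By edgeR 1 passed without D0 replicate 3, again Lyve1, a hyaluronan receptor of lymphatic vessels and perivascular macrophages, at 1.38 (SE 0.15; adjusted p = 0.0382, edgeR).

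The genes most like the other members over the 6 libraries, by the same measure, are given as descriptions. For Chil3 they were Ifi30 (Pearson r = 0.993), Atp5o (0.990) and Apbb1ip (0.990), and for Retnla Trappc4 (0.996), Aldh3a1 (0.993) and Tmem198b (0.986), the last at 0.752 without that library. For Chil1 they were Gm3531 (0.996), Gm3219 (0.996) and Anxa2 (0.995), and for Folr2 Gsta3 (0.997), Gnpda2 (0.995) and Ggh (0.995). For Mrc1 they were Kifbp (0.992), Psd (0.980) and Vhl (0.979), for Cd163 Hsd17b11 (0.984), Ifi207 (0.980) and Spryd7 (0.978), for Mgl2 Pdcl (0.978), Tmed10-ps (0.965) and Jdp2 (0.957), and for Clec10a Ldhb (0.989), Gcsh (0.983) and Ccdc68 (0.980). Among the members, Chil3 and Retnla had an r of 0.888 over the 6 libraries and −0.11 without D0 replicate 3, while Chil3 and Folr2 had 0.951 and 0.752.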

How the data were processed

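Lungs were sequenced as 3 libraries at D0 and 3 at D14, with groups and replicate numbers taken from the sample titles. The submitters' processing notes name HISAT2 2.1.0, StringTie 1.3.4b, CASAVA 1.8, edgeR and the build GRCm38 without saying what each did. Strand setting, read length and counting tool are not given in these sources. Values in the table the authors deposited are estimated counts by gene symbol and library, with no depth scaling. Of 29757 lines 4 were left out, 2 empty (Tnf and Tgfb1) and 2 not whole, and the rest were whole before rounding. Of the lines kept, 50 repeated a symbol, which no member did, and these were kept apart.

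Genes were tested over all 6 libraries with edgeR 4.0.16 in R 4.3.3 (TMM factors, default low count filter, robust quasi-likelihood F test, two-sided, no covariate), and p-values were adjusted over the 17686 tested genes by the Benjamini-Hochberg method at 0.05. CPM values carry the TMM scaling, with a prior count of 2 on the log2 scale. The test was tested on simulated data, drawn with the typical spread of genes of each level. It called 28% of genes with a true log2 change of 1, 88% with a change of 2 and 0.021% of unchanged genes. A gene that did not pass can therefore still differ between days. Counting intervals and limits cover counting error only. The members and the 18 gene lists were chosen with earlier results of these data known, and 2 lists were added after the genes most like Arg1 were seen. Genes named are the members, in each gene list those called or else the 2 most abundant, given for the lists described gene by gene, and the 3 genes most like each member. Other genes were named after their values were seen, most for their level in D0 replicate 3 (such as Marco, Ccl6, Ctsk, Lcn2, Hmox1, Il1rn, Trem2, C1qa and C1qb), or for their role (such as Nos2, Arg2, Csf1r, Siglecf, Il4ra and Stat6). Alternatives were DESeq2 1.42.0, limma-voom (limma 3.58.1), RLE or no scaling factors, other filters, a fit without robust estimation, a replicate block, each library left out, and repeated symbols summed.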

Additional observations from a re-analysis of the deposited data

How the results depend on the processing

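Over 15 alternatives for each of the 9 genes, 0 gave an adjusted p under 0.05. Signs changed only without D0 replicate 3, for Chil1 (0.029), Chil3 (0.015), Retnla (0.20) and Folr2 (0.25), and without D0 replicate 1, for Mrc1 (−0.093). With 1 library left out, the lowest values of Chil3, Retnla and Folr2 were −1.62, −1.86 and −0.998 (without D0 replicate 1), and the highest of Mrc1 was 0.27 (without D0 replicate 3). The median log2 fold change of the 9 was −0.54 and became −0.41 with limma-voom, −0.40 with the replicate block, and −0.82 (without D0 replicate 1) to 0.20 (without D0 replicate 3) with 1 library left out. The number of genes called over the whole table was 6, and 26 with no low count filter, 274 with DESeq2, 0 with the replicate block and 0 to 22 with 1 library left out. DESeq2 called 2 pathway genes where edgeR called 0. The labels state no pairing of libraries by replicate number. Deviations of same-numbered libraries from their group means correlated at 0.12, −0.055 and −0.097, and those of differently numbered libraries at −0.17 to 0.18. Means of so few libraries cannot show whether a pairing exists. Summing repeated symbols was chosen after seeing the data and changed none of these calls. Arg1, Cd163, Clec10a and Folr2 had 19 to 167 counts per library, so counting error adds to their spread. The intervals of their fold changes include changes of more than 1 on the log2 scale. Low counts alone do not set the precision: Retnla, with 311 to 2385 counts per library, had the largest SE of the 9, at 0.79.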

Other observations

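Mast cell genes also stood out in D0 replicate 3. Of 7 tested markers of mast cells and eosinophils, Cpa3, Mcpt4 and Tpsb2, proteases of mast cell granules, reached at least 2 times every other library there. Of all tested genes 1.54% did. Mcpt4 stood at 1.05, 1.15 and 7.65 CPM across D0 and at 0.579, 2.87 and 1.79 CPM across D14, and 0 of the 7 passed the test between days by edgeR. Kit, the growth factor receptor that mast cells share with other lung cells, was lowest in D0 replicate 3, with 75.8 CPM against 171 to 250.3 CPM elsewhere. These genes were picked after their values were seen.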
